A study of Homo sapiens with 4 samples.

Results

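Cytosolic ribosomal proteins build the large and small subunits of the ribosome that translates nuclear mRNAs. In human cells each of them is encoded by an intron-containing gene scattered over the genome rather than by a gene cluster, and the genes are among the most heavily transcribed by RNA polymerase II (RNAPII). Many of their transcripts begin with a C followed by a run of pyrimidines, the 5′ terminal oligopyrimidine (TOP) tract through which mTOR signaling controls their translation, and many of the genes host small nucleolar RNAs (snoRNAs) in their introns.

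The genes were chosen by symbol, as protein-coding GENCODE genes named RPL or RPS with a digit, together with RPLP0, RPLP1, RPLP2 and RPSA and without the RPS6K kinase genes. This rule gave 91 of 20046 protein-coding genes. They comprised 46 genes of the large subunit and 31 of the small subunit, which form the standard set of 77, as well as 10 paralogs such as RPL36AL, RPL3L and RPL22L1, and 3 readthrough genes that share their start with a ribosomal protein gene. The remaining gene, RPS19BP1, encodes a binding partner of RPS19 and no ribosomal protein, and was caught by its symbol. A DNA loop was assigned to a gene when an anchor of the loop came within 1 kb of any annotated transcription start site of the gene.

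The loops come from POLR2A HiChIP-seq, which joins DNA fragments that lie close together in chromatin and then enriches those bound by POLR2A, the largest subunit of RNAPII. The cells were HepG2, a human hepatocellular carcinoma line, either mock-treated with sterilized water or exposed for 24 h to 20 µM pyridostatin (PDS), a small molecule that binds guanine quadruplex (G4) structures. Both conditions had 2 biological replicates, and the 4 libraries were deposited as 1 combined loop list per condition, which leaves the variation among replicates unmeasured and allows no test of one condition against the other. Each loop carries a count of paired-end tags (PETs) with no scaling for depth.

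The complete mock list sums to 254647 PETs and the complete PDS list to 67001, so that PDS/mock is 0.263, which is the background for the PET ratios below. For loop numbers the ratio of the lists is 0.283. The lowest listed count was 3, so a loop missing from a list can still have had up to 2 PETs there. Intervals are 95% Wilson intervals, or, for ratios, follow from a Wilson interval, and cover counting error only. Since PETs carry no molecular identifiers and are gathered into loops, PETs of a loop are not independent and intervals of PET ratios are too narrow. Loops that share an anchor or a gene are not independent either, so intervals of loop ratios and loop shares can be too narrow as well. As a check of the cell type, 9 of 10 liver genes had a promoter loop in the mock list and 10 of 10 in the PDS list, against 7 and 2 of 10 genes that mark other tissues. Of all protein-coding genes, 59.8% had a mock loop and 28.7% a PDS loop. The mock counts of 9 and 7 thus separate liver genes from the others little.

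Sequences of transcription start sites are shown first because they carry what most of these genes share. Each line gives 15 bases before and 15 bases from the start of a RefSeq transcript (GRCh38.p14), 5′ to 3′ on the strand of the gene, with the pyrimidine run that begins at the start site in capitals. RPL7A, RPL41, RPL13A, RPS6 and RPS19 are examples with a C and at least 4 further pyrimidines, whereas RPS29, RPL10A and RPS26 have no C at the start. These examples were chosen after their loop counts were seen.

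RPL7A, chr9:133348203-133348232, plus strand: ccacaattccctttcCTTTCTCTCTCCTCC

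RPL41, chr12:56116618-56116647, plus strand: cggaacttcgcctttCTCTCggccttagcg

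RPL13A, chr19:49487593-49487622, plus strand: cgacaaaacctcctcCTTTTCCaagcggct

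RPS6, chr9:19380222-19380251, minus strand: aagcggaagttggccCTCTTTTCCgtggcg

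RPS19, chr19:41860240-41860269, plus strand: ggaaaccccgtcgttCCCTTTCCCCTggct

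RPS29, chr14:49598696-49598725, minus strand: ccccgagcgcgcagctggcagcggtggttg

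RPL10A, chr6:35468386-35468415, plus strand: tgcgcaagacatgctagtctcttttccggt

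RPS26, chr12:56041903-56041932, plus strand: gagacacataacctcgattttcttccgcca

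Of the 72 ribosomal protein genes matched to a RefSeq promoter, 49 (68.1%, 56.6 to 77.7%) had at least 1 start with a C followed by at least 4 pyrimidines. The same was true of 921 of 15273 other protein-coding genes (6.03%, 5.66 to 6.42%). Genes for the mitochondrial ribosome, whose proteins have their own MRPL and MRPS symbols, were close to the latter, with 6 of 69 (8.70%). Only runs that begin exactly at the RefSeq start were counted, and RPS29, RPL10A and RPS26 had none there. In RPL10A and RPS26 a run of pyrimidines follows a few bases after that start, so these genes cannot be said to lack the tract. For RPS29 the RefSeq entry is its upstream start, and its canonical start was not examined.

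Promoters of ribosomal protein genes were looped in mock-treated cells more often than those of protein-coding genes as a whole. At least 1 mock loop was found at 67 of the 91 genes (73.6%, 63.8 to 81.6%), while 59.8% of all protein-coding genes had one. Genes of the mitochondrial ribosome had one about as often, in 73.1% of cases. The excess was not seen on chromosomes 2, 6, 14, 16, 17 and 20, with 79.2% of ribosomal protein genes and 79.0% of other genes. On the remaining chromosomes the shares were 71.6% and 52.4%. After PDS treatment, 24 genes (26.4%, 18.4 to 36.3%) had a loop, against 28.7% of all protein-coding genes, and this interval includes the background. Both lists held a loop for 23 genes, the mock list alone for 44, and the PDS list alone for 1, which was RPSA, the gene of the laminin receptor precursor protein of the small subunit. Among the 67 genes with a mock loop, 44 thus had none in the PDS list, where 56.4% of all genes with a mock loop had none.

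Neither list held a loop for 23 genes. They include RPL13, RPL14, RPL24, RPL30, RPL31, RPL32, RPL34, RPL35A, RPL36A, RPL37A and RPL39 of the large subunit and RPS2, RPS3A, RPS4X, RPS16, RPS19, RPS20 and RPS27 of the small subunit. RPS19, the gene most often mutated in Diamond-Blackfan anemia, is among them. The other 5 are the paralogs RPL10L, RPL39L, RPS4Y1 and RPS4Y2 and the readthrough gene RPL36A-HNRNPH2. Loops were rare on chromosome X in general, with 75 of all mock loops there. Of the 5 ribosomal protein genes on chromosome X, RPL10 had a mock loop, of 3 PETs, and 4.22% of the other protein-coding genes on this chromosome had any.

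In all, 151 mock loops touched these promoters and carried 617 PETs, while 27 loops carrying 93 PETs did so after PDS treatment. The number of loops thus changed by a PDS/mock ratio of 0.179 (0.119 to 0.269). At promoters of other protein-coding genes, where 30384 mock loops and 7741 PDS loops were listed, it was 0.255 (0.249 to 0.261), which lies within the interval of the ribosomal protein genes, whereas the 0.283 of the complete lists lies above it. The ratio of summed PETs was 0.151 (0.121 to 0.187) at ribosomal protein genes and 0.228 (0.225 to 0.231) at other genes, and these intervals do not overlap. With canonical start sites only, the PET ratios were 0.162 (0.129 to 0.204) and 0.202 (0.199 to 0.206), and the intervals then overlap. Summed PETs exceeded the PDS value in mock-treated cells for 63 of the 68 genes with a loop. As the PDS/mock PET ratio of the complete lists is 0.263, this count alone does not set ribosomal protein genes apart. The same count over all protein-coding genes is not given here. PDS-treated cells had the higher sum for RPS6, RPS26, RPL27A and RPSA, and RPL27 had 3 PETs in both lists.

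**Figure D1:**
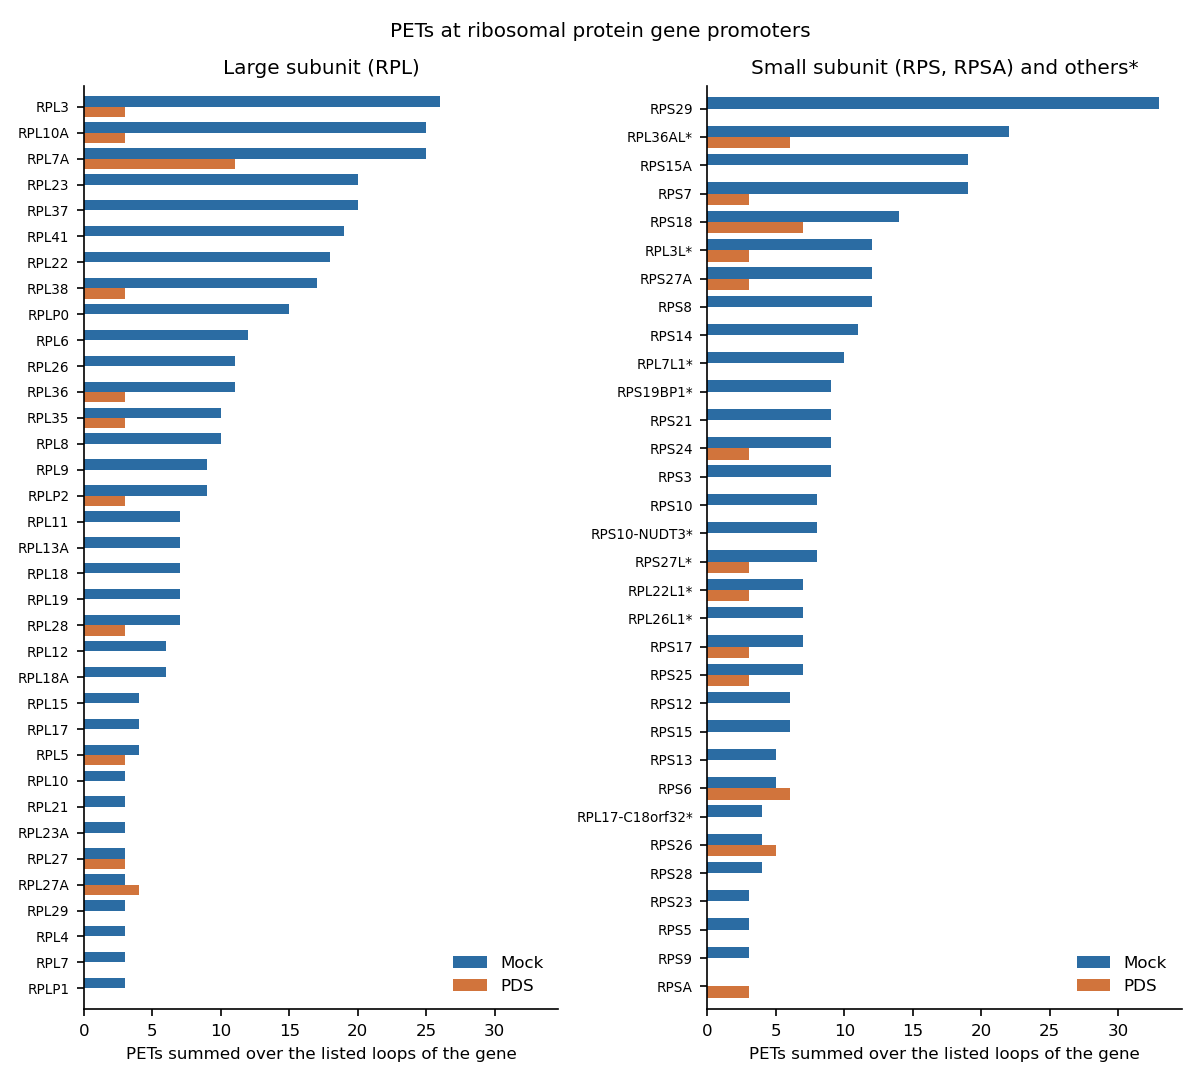
PETs summed over the listed loops of each ribosomal protein gene with a loop in either list, for mock-treated (blue) and PDS-treated (orange) cells; the left panel holds the large subunit, and the right panel the small subunit together with paralogs, readthrough genes and RPS19BP1, marked by asterisks, and 1 gene is left out. There are no error bars because each condition has 1 combined list. RPS29 reaches 33 PETs in mock-treated cells and has no PDS loop, and RPL7A keeps the most, with 11 PETs after PDS treatment.

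The PET ratio was below that of other genes in both groups of chromosomes examined. Its intervals, which are too narrow for PETs, lay apart in 1 of them only. The 6 chromosomes 2, 6, 14, 16, 17 and 20 were examined apart from the rest, since the ratio of other genes differs between these groups. On these 6 chromosomes the PET ratio was 0.129 (0.0887 to 0.187) at ribosomal protein genes and 0.248 at other genes. On the remaining chromosomes the values were 0.165 (0.126 to 0.216) and 0.205 (0.201 to 0.209), and there the intervals overlap. The ratio of loop numbers was 0.179 at the ribosomal protein genes of either group of chromosomes (0.0922 to 0.346 on the 6 and 0.107 to 0.298 on the rest). At other genes it was 0.283 and 0.225, which lie within these intervals.

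The genes of both subunits had fewer PETs after PDS treatment. The large subunit genes went from 82 loops with 343 PETs to 12 loops with 42 PETs, a PET ratio of 0.122 (0.0890 to 0.169). The small subunit genes went from 54 loops with 211 PETs to 10 loops with 36 PETs, a ratio of 0.171 (0.120 to 0.243). These intervals overlap. For RPLP0, RPLP1 and RPLP2, which form the stalk that recruits elongation factors to the ribosome, 7 mock loops with 27 PETs compared with 1 PDS loop of 3 PETs. RPL5 and RPL11, whose proteins travel with 5S ribosomal RNA, went from 3 loops and 11 PETs to a single loop of 3 PETs. The paralogs went from 15 loops and 66 PETs to 5 loops and 15 PETs, which is a ratio of 0.227 with an interval that overlaps those of both subunits. The 29 genes with an annotated snoRNA gene inside had a PET ratio of 0.155, and the 62 without one had 0.149.

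**Figure D2:**
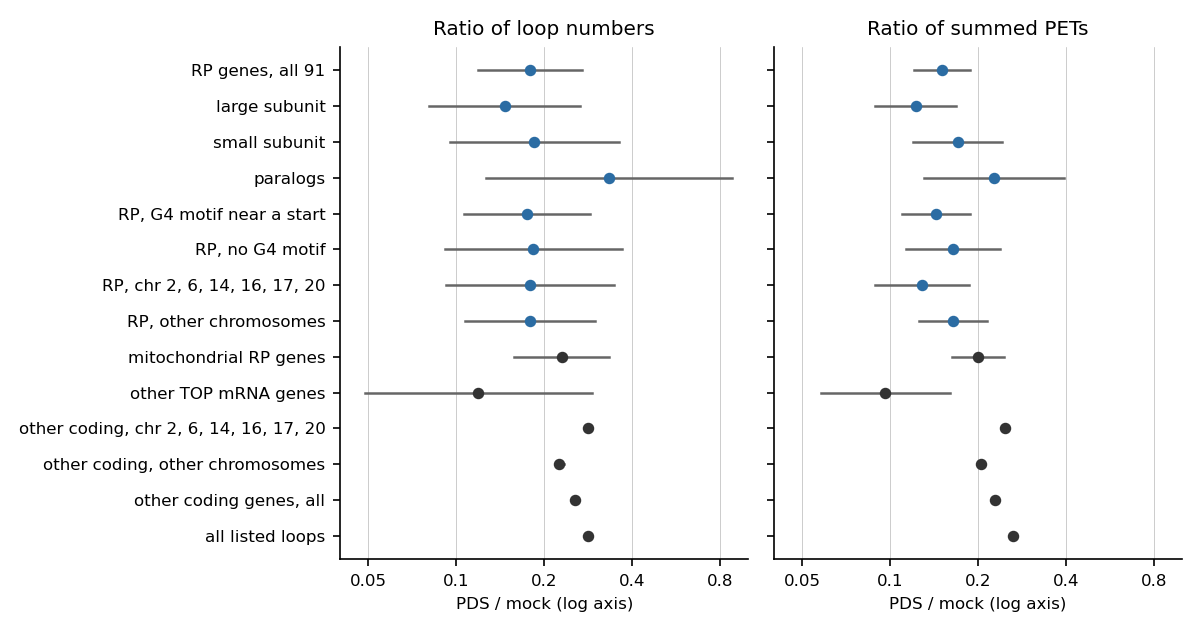
PDS/mock ratio of loop numbers (left) and of summed PETs (right) on a log axis for ribosomal protein (RP) genes and their subgroups (blue) and for other sets of loops (black); lines are 95% intervals for counting error. The PET ratio of all 91 genes is 0.151 against 0.228 at other protein-coding genes, while the interval of their loop ratio, 0.119 to 0.269, includes the other genes' 0.255.

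Among genes with at least 20 PETs summed over both lists, 10 ribosomal protein genes could be compared one by one. For 5 of them, RPS29, RPL23, RPL37, RPL3 and RPL10A, the PDS/mock PET ratio was at least 2-fold below the ratio of the lists, where 26.8% of all genes compared were this low. None was at least 2-fold above it, where 9.78% of all genes were. All 10 had at most 1/2 of their mock PETs after PDS treatment, as did 89.8% of all genes compared, and 3 had no PDS loop, where 12.5% of all genes had none. The 10 had 20 to 36 summed PETs, and the share of all genes that were this low depends on the PETs required. It was 37.5% with at least 10 PETs and 17.5% with at least 40. With at least 10 PETs, 15 of 32 ribosomal protein genes were at least 2-fold below the list ratio. At that minimum, 1 was at least 2-fold above it, against 12.5% of all genes. The median ratio of the 10 genes with at least 20 PETs was 0.139, and that of the other genes compared was 0.222. These calls depend on the missing loops. If every missing loop is given the 2 PETs that it could have had, in the genes and in the lists alike, the list ratio becomes 0.667, and 1 of the 10, RPL23, is at least 2-fold below it, as are 0.41% of all 2924 genes compared.

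RPS29, which encodes a small zinc-binding protein of the small subunit, had the most PETs of the set in mock-treated cells. Its 6 mock loops held 9, 7, 7, 4, 3 and 3 PETs, and none was in the PDS list. With 2 PETs for each of the 6 missing loops, its PDS sum could be at most 12, still below the 33 of mock-treated cells. The gene lies on the minus strand of chromosome 14 and has annotated start sites in a pair of anchors. The canonical start at 49586380 lies in the anchor from 49585491 to 49589873, which also holds RN7SL1, a gene of the 7SL RNA of the signal recognition particle. An upstream group of starts, from 49598683 to 49599164, lies in the anchor from 49594704 to 49601908, which also holds the promoter of LRR1. A loop of 7 PETs joined these 2 anchors, and the loop of 9 PETs joined the upstream anchor to the promoter of RPL36AL at a distance of 19.2 kb. Of the sequence within 1 kb of its canonical start, 20.1% of 31-base words have another copy elsewhere in the genome. Such words are shorter than the sequenced reads. Whether reads of this region could be mapped uniquely, and any effect on its counts, was not tested.

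RPL36AL, a paralog of RPL36A that encodes a protein of the large subunit, had 5 mock loops with 9, 4, 3, 3 and 3 PETs. One of the loops of 3 PETs was also in the PDS list, with 3 PETs there, and a further PDS loop of 3 PETs joined it to the NEMF promoter over 236 kb, giving 22 and 6 PETs in all. NEMF takes part in the quality control of stalled ribosomes. Its anchor also holds the promoter of MGAT2, a Golgi glycosyltransferase gene, so that the loops cannot be assigned to RPL36AL alone. In the plot of this locus the dense set of short loops around RPS29 is seen in mock-treated cells only, while the PDS list holds 2 loops, both at RPL36AL.

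**Figure D3:**
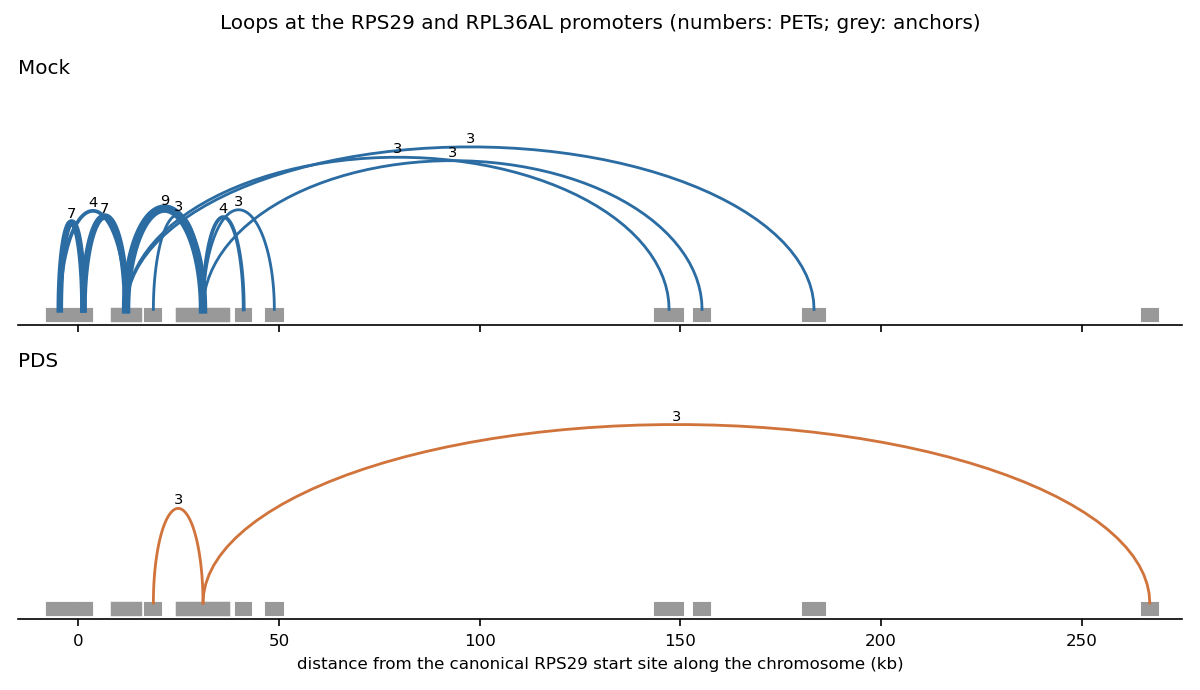
Loops at the promoters of RPS29 and RPL36AL in the mock list (top) and the PDS list (bottom), drawn to scale along the chromosome in kb from the canonical RPS29 start; grey boxes are anchors, arcs join anchor midpoints, and line width and numbers give PETs. The loop of 9 PETs between the RPS29 and RPL36AL anchors and all other RPS29 loops are absent from the PDS list.

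RPL3, which encodes a protein near the peptidyl transferase center, had 5 mock loops with 7, 6, 6, 4 and 3 PETs. All 5 used an anchor that holds other annotated starts of RPL3 and not its canonical start. The loop of 4 PETs joined this anchor to the anchor of the canonical start. The loop of 7 PETs, which spans 147 kb to a region outside protein-coding genes, remained with 3 PETs in the PDS list, and the other 4 were not listed. RPL10A, a large subunit gene, followed the same course. Its 5 mock loops had 8, 7, 4, 3 and 3 PETs, and the loop of 8 PETs was listed with 3 after PDS treatment. The loop of 7 PETs that joined RPL10A to the promoter of FANCE, a Fanconi anemia gene, over 14.8 kb was not listed after treatment.

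RPL23 and RPL37 had no PDS loop at all. RPL23, whose protein can bind MDM2, had mock loops of 9, 6 and 5 PETs, the second of which reached the promoter of LASP1. RPL37 had mock loops of 6, 5, 5 and 4 PETs, of which one of 5 PETs reached the promoter of PRKAA1, a catalytic subunit of the AMP-activated kinase. The RPL37 anchor also holds the promoter of CARD6. RPS15A, a small subunit gene, went from 5 mock loops with 5, 4, 4, 3 and 3 PETs to none. RPL41, which encodes the shortest ribosomal protein, went from 5 mock loops with 6, 4, 3, 3 and 3 PETs to none, and its anchor also holds the promoters of ESYT1 and ZC3H10. RPS7, another small subunit gene, had 5 mock loops with 5, 4, 4, 3 and 3 PETs, of which a loop of 4 PETs to the COLEC11 promoter was listed with 3 in the PDS list. All RPS7 loops used an anchor without the canonical start of the gene, and a loop of 3 PETs joined it to the anchor of that start.

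RPL7A kept more loops than the other genes with many mock PETs. It lies in the surfeit locus on chromosome 9, and its anchor of 20369 bp, the widest of the set, also holds promoters of MED22, SURF1, SURF2 and SURF4. Its 6 mock loops had 8, 5, 3, 3, 3 and 3 PETs, 25 in all. In the PDS list, the loop of 8 PETs to an anchor with the STKLD1 and SURF4 promoters had 6 PETs, and a loop of 3 PETs to the SURF6 promoter had 5. As SURF4 has start sites at both anchors of the former loop, that loop cannot be assigned to RPL7A alone. The PDS/mock PET ratio of RPL7A was 0.440. RPS18 had a ratio of 0.5, with mock loops of 5, 3, 3 and 3 PETs and PDS loops of 4 and 3 PETs. The loop of 5 mock and 4 PDS PETs joined 2 start regions of RPS18 itself.

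The strongest PDS loop outside the surfeit locus was that of RPS6, whose protein is the classical substrate of the S6 kinases. This loop joined RPS6 to the body of a neighboring gene over 10.3 kb, with 5 mock PETs and 6 PDS PETs. RPS26 likewise had a single loop, of 6.69 kb, with 4 mock PETs and 5 PDS PETs. RPL27A had a mock loop of 3 PETs and a different PDS loop of 4 PETs, both to DENND2B promoters. Differences of 1 PET are not resolved at these counts.

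Single loops at ribosomal protein promoters were of moderate strength. The highest count was 9 PETs before and 6 PETs after PDS treatment, whereas other protein-coding promoters had 334 mock loops of at least 10 PETs, or 1.1% of their loops, and reached 24 PETs. The mean was nevertheless not lower, with 4.09 PETs per mock loop at ribosomal protein genes and 3.86 at other genes. Of 27 PDS loops, 21 had 3 PETs, and 12 of the 13 loops found in the PDS list only were among these.

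Since a strong loop is more likely to be in both lists than a weak one, sharing between the lists was compared within classes of mock PETs. Loops of 3 mock PETs were also in the PDS list in 4 of 72 cases at ribosomal protein genes (5.56%, 2.18 to 13.4%) and in 5.47% at other genes. At 4 PETs the shares were 3 of 36 (8.33%, 2.88 to 21.8%) and 11.6%, at 5 or 6 PETs 4 of 31 (12.9%, 5.13 to 28.9%) and 20.5%, and at 7 or more PETs 3 of 12 (25%, 8.89 to 53.2%) and 40.5%. Every interval includes the share at other genes. At the rates of other genes, 19.3 shared loops would have been listed where 14 were, or 18.2 when the 2 groups of chromosomes are taken apart. The 3 strong loops that remained belonged to RPL7A, RPL10A and RPL3, and the 9 that did not belonged to RPS29 with 3, one of them shared with RPL36AL, and to RPL23, RPL38, RPL36, RPL10A, RPL22L1 and RPL7L1.

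**Figure D4:**
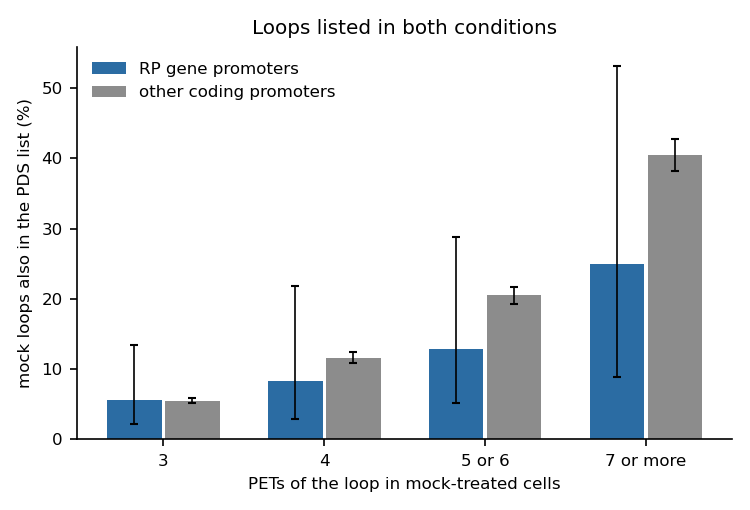
Share of mock loops that were also in the PDS list, by the PETs of the loop in mock-treated cells, for promoters of ribosomal protein genes (blue) and of other protein-coding genes (grey); error bars are 95% Wilson intervals. The ribosomal protein genes have 72, 36, 31 and 12 mock loops in the 4 classes, and every one of their intervals includes the share at other genes.

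Of the 14 shared loops, 8 had fewer PETs in the PDS list, 3 had the same number and 3 had more. The 4 shared loops with 3 mock PETs could not have been lower. A factor between conditions that takes the minimum of 3 PETs into account, computed over the 11 shared loops whose PETs add up to between 7 and 19, was 0.55 (0.288 to 0.968), and 0.460 (0.441 to 0.479) for other genes, which lies within the interval of the ribosomal protein genes.

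The most frequent partner of these promoters was the promoter of another gene. In the mock list, 74 of 151 loops (49.0%, 41.2 to 56.9%) joined a ribosomal protein promoter to the promoter of another protein-coding gene, 29 reached the body of another protein-coding gene and 25 a region outside protein-coding genes. A further 10 loops joined 2 start sites of the same gene and 10 stayed within its body. Counted per promoter end, the other anchor held the promoter of a different gene for 87 of 163 ends (53.4%, 45.7 to 60.9%), compared with 23.4% (23.0 to 23.8%) for promoters of other protein-coding genes. The share after PDS treatment was 55.2% (37.6 to 71.6%, 29 ends), against 20.7% for other genes. At ribosomal protein genes these counts include loops to a further start of a gene that shares the anchor, such as ESYT1 at RPL41. They also include loops between starts of the same ribosomal protein gene when the partner anchor holds another gene too, such as VPS52 at RPS18. The shares of ribosomal protein genes and of other genes may therefore not be like for like, and the size of this effect was not tested. With any coding promoter as partner, also of the same gene, the mock shares were closer, at 60.1% (52.5 to 67.3%) and 43.2% (42.7 to 43.7%). Loops between promoters and loops with 1 promoter anchor had PET ratios of 0.157 (0.118 to 0.208) and 0.143 (0.102 to 0.2) at ribosomal protein genes.

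The partner promoters belonged to 87 other genes in the mock list and to 18 in the PDS list, with 11 in both. A few partners are given as examples, chosen after their values were seen. RPS27A, which encodes a ubiquitin fusion protein and whose anchor also holds the CLHC1 promoter, was joined by 6 PETs to MTIF2, a mitochondrial translation initiation factor gene. RPS14 was joined by 4 PETs over 73.8 kb to TCOF1, whose product treacle acts in ribosomal DNA transcription. The start region shared by RPLP0 and GCN1, a gene that acts in the sensing of amino acid shortage, was joined by 5 PETs to a further GCN1 start. This region does not hold the canonical RPLP0 start. None of these 3 loops was in the PDS list. The neighbors RPS24 and POLR3A, the latter a subunit gene of RNA polymerase III, kept their loop, with 6 mock PETs and 3 PDS PETs over 5.30 kb.

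The median distance between anchor midpoints was 16.7 kb (13 to 21.1 kb) in the mock list and 19.5 kb (10.7 to 32.5 kb) in the PDS list, and 20.0 kb (19.7 to 20.4 kb) for mock loops of other protein-coding promoters. Of the mock loops, 87 (57.6%, 49.6 to 65.2%) spanned less than 20 kb, compared with 50.1% at other genes. A further 18 (11.9%, 7.68 to 18.1%) spanned more than 100 kb, compared with 13.8%, with the longest, of 822 kb and 3 PETs, at RPS12. The ratio of loop numbers was 0.140 (0.0608 to 0.320) at 5 to 10 kb and 0.222 (0.0788 to 0.627) beyond 100 kb, and these intervals overlap.

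**Figure D5:**
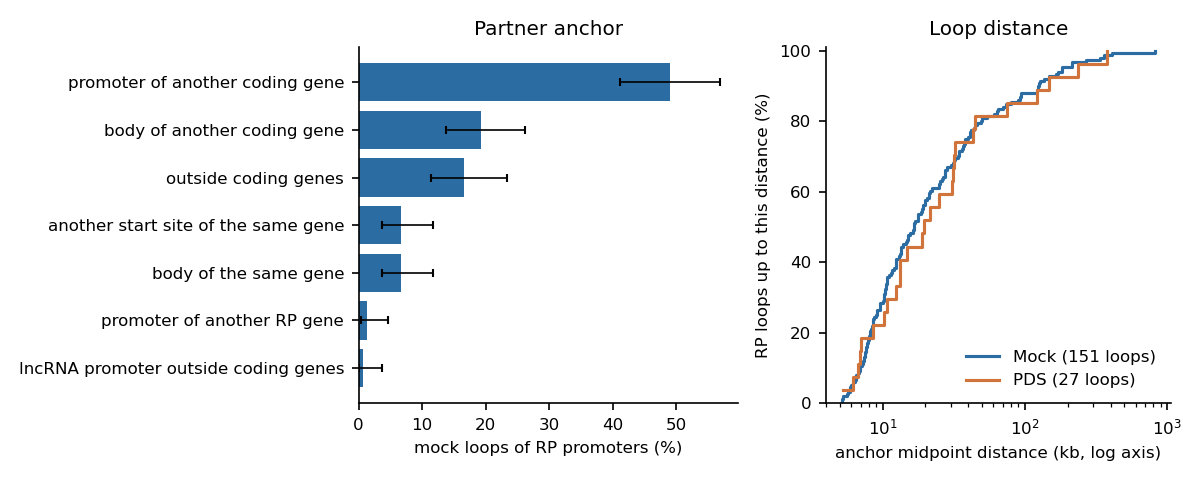
Left, share of the 151 mock loops of ribosomal protein (RP) promoters by what the partner anchor holds, with 95% Wilson intervals. Right, cumulative share of the loops by the distance between anchor midpoints in kb on a log axis; the medians are 16.7 kb for 151 mock loops and 19.5 kb for 27 PDS loops.

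Many anchors could not be assigned to a single gene. The loops used 80 anchors with a ribosomal protein promoter, of a median width of 5073 bp, and 34 of them (42.5%) held promoters of more than 1 protein-coding gene, compared with 10.6% of promoter anchors of other genes, whose median width was 6632 bp. Whether this has a part in the share of partner promoters was not tested. With the 82 mock loops and 15 PDS loops left when such anchors are set aside, the PET ratio was 0.149 (0.111 to 0.199). Ribosomal protein genes also have many processed pseudogene copies in the genome. Around their canonical starts a median of 8.22% of 31-base words occurred more than once, against 1.17% for other protein-coding genes. The median was 8.22% for the members with a mock loop and 7.74% for those without one, and its part in the results was not tested.

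Because PDS binds G4 structures, predicted G4 motifs were searched, as at least 3 consecutive G occurring 4 times on either strand, separated by 1 to 7 bases of any kind. Within 1 kb of a start site, 56 of 91 ribosomal protein genes (61.5%, 51.3 to 70.9%) had a motif, fewer than the 76.8% (76.2 to 77.4%) of other protein-coding genes. At the canonical start the shares were 49.5% (39.4 to 59.5%) and 68.7% (68.0 to 69.3%), and for genes of the mitochondrial ribosome 50%. The 45 genes with a motif near the canonical start had motifs at 77 positions, 1 of them near the starts of both RPL17 and its readthrough gene. Counted per gene, 34 lay upstream of the start, 43 in introns and 1 in a UTR. The motifs below stand for genes that kept PETs after PDS treatment, RPL7A and RPS26, and for genes that lost most of theirs, RPL10A and RPS7. The RPS7 motif lies in an anchor used by a single RPS7 loop, of 3 mock PETs, and not in the anchor that all RPS7 loops share. Each motif is written 5′ to 3′ on its own strand (GRCh38), with the G runs in capitals and its distance from the canonical start (negative when upstream).

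RPL7A, opposite strand, at -366 bp from the start, chr9:133347852-133347870: GGGagtGGGGGtGGGtGGG

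RPL7A, opposite strand, at -317 bp from the start, chr9:133347901-133347928: GGGGcGGGtatgaGGGtgtggtGGGGGG

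RPS26, strand of the gene, at -217 bp from the start, chr12:56041701-56041728: GGGGcaGGGGGGaaGGGGGGGaGGGGGG

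RPL10A, strand of the gene, at -363 bp from the start, chr6:35468038-35468064: GGGcgcgaGGGGagaGGGGtttgaGGG

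RPS7, strand of the gene, in an intron 431 bp after the start, chr2:3575691-3575718: GGGtttccctGGGGtctGGGGtGGGGGG

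Genes with and without a motif near the start had PET ratios with overlapping intervals. The 56 genes with a motif had a PDS/mock PET ratio of 0.144 (0.110 to 0.188) and the 35 without one had 0.164 (0.113 to 0.238). A PDS loop was listed for 16 of the former (28.6%) and 8 of the latter (22.9%). RPL7A and RPS26 with a motif and RPS6, RPL27A and RPS18 without one had PDS loops, while RPS29 and RPS15A with a motif and RPL23, RPL37 and RPL41 without one had none. Most anchors are several kb wide, and 135 of 151 mock loops (89.4%, 83.5 to 93.4%) had a motif in at least 1 anchor, compared with 83.1% (82.7 to 83.5%) at other protein-coding promoters. These 135 loops had a PET ratio of 0.136 (0.107 to 0.174), and the 16 loops with no motif in either anchor had 0.269 (0.161 to 0.45). The intervals overlap, and at other genes the ratios were 0.228 with and 0.230 without a motif.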

How the data were processed

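POLR2A HiChIP-seq was measured in mock- and PDS-treated HepG2 cells, with 2 biological replicates per condition. The authors used HiC-Pro version 3.1.0 for alignment to GRCh38, removal of duplicates and assignment to fragments of an MboI digest. They deposited 1 loop list per condition with raw counts of PETs per loop. The loop caller and the way replicates were combined are not given in the sources used here. Such lists hold only loops of at least 3 PETs, which understates weak contacts, and library depth is unknown, so ratios between conditions are not corrected for depth.

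Samples were grouped by the labels. Start sites came from GENCODE 44. Loops were shared when both anchors had the same coordinates in the mock and PDS lists, and distances run between anchor midpoints. Ratios, shares and factors were given 95% intervals, and no test was run between conditions. The genes named were the 10 with most mock PETs, the 3 highest and 3 lowest ratios among genes of at least 20 PETs, genes at loops of at least 10 mock or 5 PDS PETs, joined pairs and genes without loops. A joined pair of genes and the ribosomal protein genes under other symbols are not reported here. A few others, chosen after their values were seen, are given as examples. The genes, lists and chromosome groups were chosen with earlier results of these data known. Promoter sequences came from RefSeq. Assignment of loops, factors and motifs were tested on simulated data. Alternatives were PET minimums, start site windows, subsets of genes, chromosomes and distances, overlap rules, scaling and motif definitions. Analysis used scipy 1.17.1, numba 0.67.0, pandas 2.3.3, numpy 2.4.6 and matplotlib 3.10.9 under Python 3.11.15.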

Additional observations from a re-analysis of the deposited data

How the results depend on the processing

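Of 62 alternative values, 44 moved by less than the 95% interval of the main value, 18 moved by more and 0 were counted as a change of direction. Shares have no direction, so the last count bears on ratios and factors only. As the complete lists have a PDS/mock PET ratio of 0.263, a reversal of these was unlikely from the start. With at least 4 PETs per loop, the ratio of loop numbers was 0.0760 (0.177 at other genes), the PET ratio 0.0748 (0.160 at other genes), the share of genes with a mock loop 53.9%, with a PDS loop 5.50%, and the share of mock loops also listed for PDS 5.06%. With at least 5 PETs these values were 0.0930 (0.126), 0.0856 (0.115), 34.1%, 3.30% and 4.65%, and the interval of the PET ratio (0.0556 to 0.132) then includes that of other genes. With the canonical start site only, the interval of the PET ratio (0.129 to 0.204) reached the 0.202 of other genes. Dividing PETs by the list totals gave a PET ratio of 0.573, and extending anchors by 5 kb raised the share of mock loops also listed for PDS to 21.9%. The share of mock loops with a promoter in both anchors was 66.1% with start sites within 2500 bp and 41.1% with the canonical start site only, against 57.0%. The share of genes with a G4 motif was 85.7% with spacers of 1 to 12 bases and 49.5% at the canonical start only, where other genes had 68.7%. With the wider spacers no share of other genes is given, so whether ribosomal protein genes still had a motif less often cannot be told. The shares above of genes with a loop, of loops in both lists and of loops between promoters are likewise for ribosomal protein genes only. The share of genes compared that fell at least 2-fold below the list ratio was 0% with missing loops counted as 2 PETs, against 50%, with 4 of 10 then at least 2-fold above it. As the list ratio stays at 0.263 in this setting, it raises every gene and gave 80.7% of all genes above and 0% below. With missing loops counted as 2 PETs in the list totals too, a setting chosen after seeing the data, the share was 10%, with none above, and a minimum of 40 PETs left no ribosomal protein gene to compare. The cause of these shifts was not tested, except that a higher minimum removes loops by construction.

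No paired analysis was possible because both replicates of a condition are combined in 1 list, and for the same reason leaving out each replicate was not run. With 3 PETs in 72 of 151 mock loops, absence of a single loop from the PDS list is not detectable as a difference.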

Other observations

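Other genes of the translation machinery gave values on either side of those of the ribosomal protein genes. A list of 19 other genes with TOP mRNAs, among them elongation factor and translation initiation factor genes, had a mock loop at 12 genes and a PDS loop at 4, with 166 and 16 PETs and a PDS/mock PET ratio of 0.0964 (95% interval 0.058 to 0.160). Of 13 of these genes matched to a RefSeq promoter, 12 had a pyrimidine start. Genes of the mitochondrial ribosome had a mock loop at 57 of 78 genes (73.1%) and a PDS loop at 21, with 543 and 109 PETs and a ratio of 0.201 (0.164 to 0.247). The intervals of both lists overlap that of the ribosomal protein genes.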
